A study of Rattus norvegicus with 15 samples.

Results

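Transcripts that define midbrain dopamine neurons or their subtypes, 10 in all, were followed in the ventral tegmental area of 15 rats. The genes were Nr4a2, Pitx3, Foxa1, Foxa2, Otx2, Ret, Aldh1a1, Drd2, Kcnj6 and Sncg, taken as every probe set that the array annotation names with exactly 1 of these symbols. That gave 17 probe sets for the 10 genes, of 14217 genes with 1 symbol on the array. The ethanol group held 7 rats and the age-matched water group 8, with 1 rat per array, and ethanol rat 3 was not analysed here. Per the series title, the rats were of the alcohol-preferring (P) line, bred for high voluntary intake, and the ethanol group is tied to loss-of-control drinking. The design text of the series instead names rat lines selected for opposite drinking habits, and the labels give no line, age in days, sex, amount drunk or time since the last drink. The question the labels pose is therefore whether these transcripts differed between ethanol and water rats.

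Midbrain dopamine neurons arise from the floor plate, where the forkhead factors Foxa1 and Foxa2 and the homeodomain factor Otx2 act early. The nuclear receptor Nr4a2 (Nurr1) and the homeodomain factor Pitx3 then switch on and maintain the genes for making and handling dopamine. In the adult, subsets of these neurons differ in Otx2, in the retinaldehyde dehydrogenase Aldh1a1, in the potassium channel subunit Kcnj6 (Girk2), in the autoreceptor Drd2 and in the synuclein Sncg, while Ret is the receptor through which GDNF family factors act on them.

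Values are log2 units after RMA, so 1 unit is a factor of 2. Levels of different probe sets are not comparable, because probes bind with different strength. A probe set counted as measured if it averaged at least 6.94 over the 15 arrays (40th percentile), which kept 18625 of 31042. Of the 17 probe sets 12 passed, and they stand for 8 of the 10 genes. Pitx3 and Foxa1 lay under the filter, as did 1 further probe set of Otx2 and 2 of Kcnj6. The probe set with the highest mean stands for a gene below unless another is named. Differences are ethanol minus water with limma's moderated standard error (SE), and adjusted p-values are limma's with Benjamini-Hochberg adjustment over the 18625.

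The tissue label was checked against 4 genes of dopamine synthesis and transport. Th, the rate-limiting enzyme, averaged 14.94 ± 0.22 in ethanol rats and 14.80 ± 0.26 in water rats (SD, n = 7 and 8), and Slc6a3, the dopamine transporter, 14.66 ± 0.25 in ethanol rats and 14.51 ± 0.25 in water rats. The array mean of Th, Slc6a3, Slc18a2 and Ddc ranged over 14.21 to 14.73 in ethanol rats and 13.94 to 14.62 in water rats. Its difference of 0.18 gave p = 0.164 in a two-sided exact permutation test over all divisions of the arrays into groups of this size. Markers of noradrenaline neurons, cholinergic neurons, and choroid plexus and ependyma had 0 probe sets above the filter. Of the measured genes in 14 marker lists only Olig1, an oligodendrocyte precursor marker, was called, and it fell by 0.28 (adjusted p = 0.0452 by limma). It did not pass the adjusted threshold in the fit without the filter (unadjusted p = 0.000384 by limma). The other measured genes of its list, Pdgfra and Cspg4, differed by -0.027 and -0.00061. Median correlations of an array with the others lay between 0.988 and 0.993, and water rats 7, 8 and 5 had the lowest. The 3' minus 5' signal of control transcripts was 0.989 to 1.15 in ethanol rats and 1.05 to 1.20 in water rats.

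No measured probe set of these genes passed the test between the groups. By limma 0 of 12 passed the adjusted threshold of 0.05, with adjusted p-values from 0.548 to 0.952, against 0.929% of all measured probe sets (173 of 18625). At an unadjusted p under 0.05 the count was also 0, against 12.1% of all measured probe sets. Fitted without the filter, 0 of the 17 passed, against 0.448% of all probe sets. In 0 of the 12 were the groups free of overlap, against 0.623% overall. The mean was higher in ethanol rats for 10 of the 12 probe sets and for 7 of the 8 genes, against 53.3% of all measured probe sets. The median difference over the 8 genes was 0.11, beside 0.0062 over all measured probe sets. Because the genes vary together from rat to rat, as described below, these 8 signs are not 8 separate observations. Markers of other cells leaned one way as well: microglial markers averaged higher in ethanol rats in 6 of 6 (list mean 9.15 to 9.42 in ethanol rats and 8.85 to 9.30 in water rats), oligodendrocyte markers lower in 5 of 5 (14.07 to 14.37 in ethanol rats and 14.27 to 14.64 in water rats) and meningeal markers lower in 4 of 4 (7.52 to 8.30 in ethanol rats and 7.85 to 8.78 in water rats). In these 3 lists no measured gene passed, with lowest adjusted p-values of 0.0908, 0.0925 and 0.134 by limma. The meningeal marker Col1a1 lay under the filter. In the fit without the filter it differed by -0.52 and passed the adjusted threshold (unadjusted p = 0.000142 by limma). The part of these 3 lists in the differences was not tested. Over all genes on the array, oligodendrocyte precursor markers were lower in 4 of 4, serotonin neuron markers in 3 of 3 and glutamate neuron markers in 2 of 2. GABA neuron markers were higher in 3 of 3. The astrocyte list and the endothelial and mural list each split into 3 higher and 3 lower, and the remaining lists of other cells were mixed. In tissue RNA, a change in the number of dopamine neurons and a change in the RNA of each cannot be told apart.

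**Figure D1:**
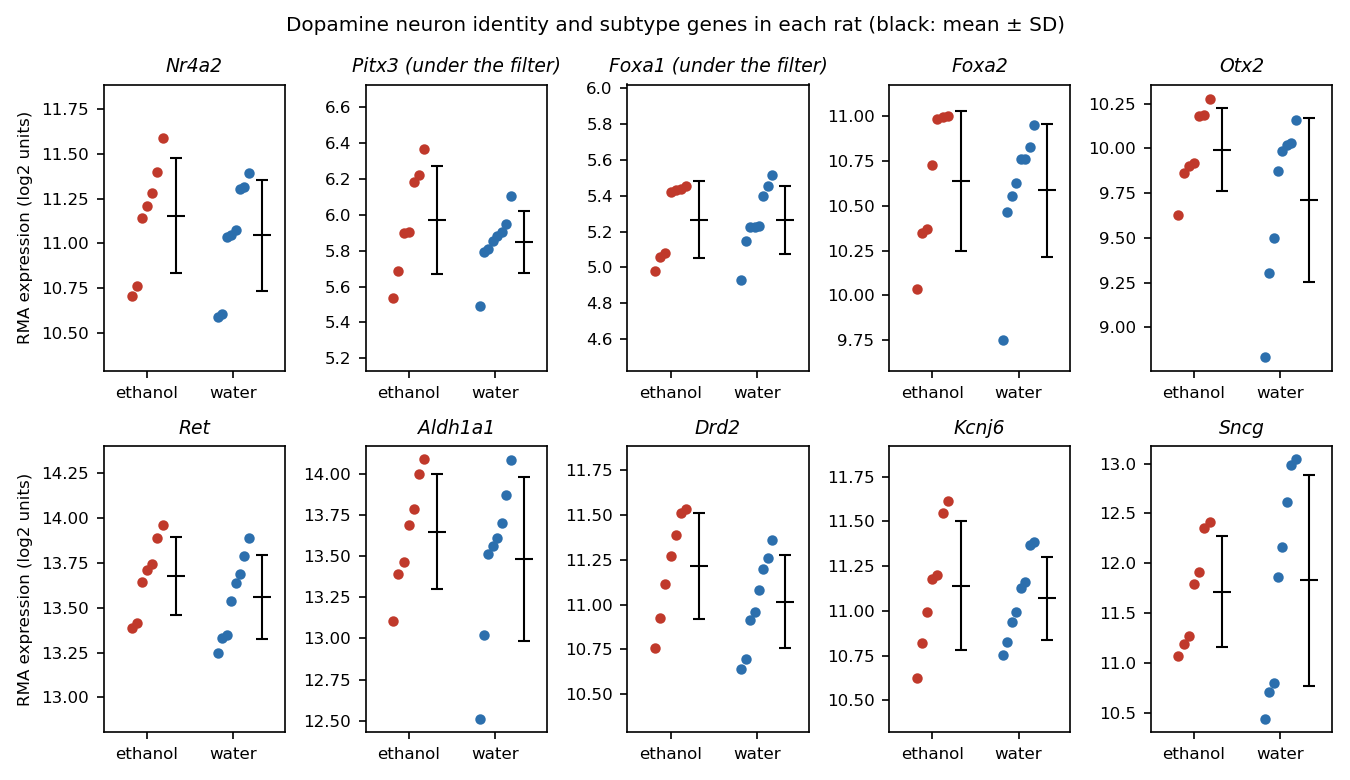
Log2 RMA expression (vertical axes, with a separate scale for each gene) of the 10 genes in each rat, with 7 ethanol rats (red) to the left of 8 water rats (blue), sorted by value, and the mean ± SD in black. The groups overlap in every panel, and Sncg has the widest spread, from 10.43 to 13.05 in water rats.

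Nr4a2 (1369007_at), which maintains the dopamine phenotype throughout life, had 10.71 as its lowest, 11.21 as its median and 11.59 as its highest value in ethanol rats, against 10.59, 11.06 and 11.39 in water rats. The groups overlapped over most of their range, with 2 ethanol rats above the highest water rat. The difference was 0.11 (SE 0.15, 95% interval -0.20 to 0.42, adjusted p = 0.803). Its other probe set, 1387410_at, averaged 10.32 ± 0.30 in ethanol rats and 10.24 ± 0.38 in water rats, a difference of 0.089. Both probe sets ordered the rats almost alike (r = 0.97 over 15 arrays).

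The windows before the starts of Ret, Drd2 and Kcnj6 are shown because these genes followed Th most closely over the rats. The 250 bases before each start are given 5' to 3' on the gene's strand, from the RefSeq promoter table of the GRCr8 build, at chr4:153040557-153040806 (minus strand) for Ret, chr8:58605153-58605402 (plus) for Drd2 and chr11:47778349-47778598 (minus) for Kcnj6. Capitals mark matches to the motifs searched.
Ret: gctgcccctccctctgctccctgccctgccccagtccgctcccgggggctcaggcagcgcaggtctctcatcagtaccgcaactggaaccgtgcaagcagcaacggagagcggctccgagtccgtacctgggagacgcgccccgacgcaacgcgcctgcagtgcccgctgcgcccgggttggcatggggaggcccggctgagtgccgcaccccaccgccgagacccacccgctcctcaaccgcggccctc
Drd2: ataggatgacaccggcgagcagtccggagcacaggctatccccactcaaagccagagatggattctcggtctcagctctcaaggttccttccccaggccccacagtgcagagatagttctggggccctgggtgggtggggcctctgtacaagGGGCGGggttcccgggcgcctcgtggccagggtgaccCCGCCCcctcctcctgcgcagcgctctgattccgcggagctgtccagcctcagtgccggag
Kcnj6: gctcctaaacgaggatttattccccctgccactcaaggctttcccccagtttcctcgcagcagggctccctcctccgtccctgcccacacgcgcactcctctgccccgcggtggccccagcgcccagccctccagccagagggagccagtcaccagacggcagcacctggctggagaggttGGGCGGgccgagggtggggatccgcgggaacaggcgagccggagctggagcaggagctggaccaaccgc

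The table held 8 of the 10 genes, all but Foxa1 and Otx2, and 5 motifs were searched on both strands. In 5 of the 8 the window ends at the outer end of the gene's RefSeq span. The starts used for Nr4a2, Aldh1a1 and Sncg are internal, 11039, 110681 and 736 bases inside that end, so their windows lie within the gene and not before its first annotated base. The NR4A monomer element AAAGGTCA was in 0 of the 8 windows, against 1.24% of 33469 windows of the same length. The paired-type homeodomain core TAATCC, of the kind Pitx and Otx factors bind, was also in 0, against 6.34%. A forkhead core, TGTTTAC or TATTTAC, was in 1, that of Aldh1a1, against 6.14%, and the TATA box TATAAA was in 1, that of Foxa2, against 12.9%. In the Foxa2 window the TATA match reads on both strands at overlapping bases. The GC box GGGCGG was in 4 of the 8 windows, those of Drd2, Kcnj6, Pitx3 and Sncg, against 30.5% overall. Drd2 and Pitx3 carried it on both strands and Sncg on the opposite strand, and the windows of Nr4a2 and Ret held none of the 5 motifs. A match is a run of letters in this window and not a bound site.

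Pitx3 (1370222_at), needed for the survival of midbrain dopamine neurons in mice, was dim, with 5.53, 5.90 and 6.37 as lowest, median and highest values in ethanol rats, against 5.49, 5.87 and 6.10 in water rats. In the fit without the filter its difference was 0.12 (SE 0.11, adjusted p = 0.752). Foxa1 (1369834_at), which shares early floor-plate functions with Foxa2, was also dim, at 4.98, 5.42 and 5.45 in ethanol rats and 4.93, 5.23 and 5.52 in water rats. Its group means were 5.27 ± 0.21 in ethanol rats and 5.27 ± 0.19 in water rats (adjusted p = 0.998 without the filter). RMA compresses differences at such levels.

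Foxa2 (1368711_at), a forkhead factor that stays on in adult dopamine neurons, had 10.03, 10.73 and 11.00 as lowest, median and highest values in ethanol rats. In water rats these were 9.75, 10.69 and 10.95. The groups overlapped over most of their range, with water rat 5 the lowest of all and 3 ethanol rats above the highest water rat. The difference was 0.051 (SE 0.18, 95% interval -0.32 to 0.42, adjusted p = 0.935). Without water rat 5 it was -0.068.

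Otx2 (1375465_at), which in the adult marks ventral tegmental dopamine neurons more than those of the substantia nigra in mice, had the largest difference of the 8 genes. Its lowest, median and highest values were 9.63, 9.92 and 10.28 in ethanol rats, against 8.84, 9.93 and 10.16 in water rats. The medians were nearly equal, and water rats 5, 8 and 7 lay below every ethanol rat. The difference in means was 0.28 (SE 0.17, 95% interval -0.086 to 0.65, adjusted p = 0.548), and without water rat 5 it was 0.15. The SD was 0.23 in ethanol rats and 0.46 in water rats. The dim probe set 1375394_at averaged 6.11 ± 0.16 in ethanol rats and 6.11 ± 0.19 in water rats, and did not follow the brighter one (r = -0.14).

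Ret (1370989_at), the tyrosine kinase of the GDNF receptor complex, had 13.39, 13.71 and 13.96 as lowest, median and highest values in ethanol rats, against 13.25, 13.59 and 13.89 in water rats. By this probe set Ret was the steadiest of the 8 genes within groups, with an SD of 0.22 in ethanol rats and 0.23 in water rats. For its probe set 1371112_at the SD was 0.31 in ethanol rats and 0.28 in water rats. The difference was 0.12 (SE 0.11, 95% interval -0.11 to 0.35, adjusted p = 0.688). The probe sets 1371112_at and 1388208_a_at differed by 0.029 and 0.083, and all 3 correlated with one another at r = 0.86 to 0.93.

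Aldh1a1 (1387022_at), which oxidises retinaldehyde and the dopamine metabolite DOPAL and marks a ventral subset of dopamine neurons, had 13.11, 13.69 and 14.09 as lowest, median and highest values in ethanol rats, against 12.51, 13.59 and 14.08 in water rats. The highest rats of the groups were level, and water rat 8 was lowest. The difference was 0.16 (SE 0.20, 95% interval -0.27 to 0.59, adjusted p = 0.784). Without water rat 8 it was 0.024.

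Drd2 (1368708_a_at), the D2 receptor that dopamine neurons use as an autoreceptor to slow their own firing and release, had 10.76, 11.27 and 11.53 as lowest, median and highest values in ethanol rats, against 10.64, 11.02 and 11.36 in water rats. Of the 7 ethanol rats 3 lay above the highest water rat, and the remaining ones fell inside the water range. The difference was 0.20 (SE 0.13, 95% interval -0.075 to 0.47, adjusted p = 0.571). The interval reaches a factor of 1.39 upward and 0.950 downward.

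Kcnj6 (1369035_a_at), a subunit of the inwardly rectifying potassium channel that D2 receptors open, had 10.63, 11.18 and 11.62 as lowest, median and highest values in ethanol rats, against 10.75, 11.06 and 11.39 in water rats. The ethanol rats reached past the water rats at both ends, with an SD of 0.36 in ethanol rats and 0.23 in water rats. The difference was 0.071 (SE 0.14, 95% interval -0.23 to 0.37, adjusted p = 0.873). The measured probe set 1369034_at gave -0.038 and followed the first over the rats (r = 0.83).

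The remaining Kcnj6 probe sets were dim. The set 1370598_a_at differed by 0.092 and also followed the first (r = 0.78). The set 1370704_at averaged 6.94 ± 0.08 in ethanol rats and 6.86 ± 0.02 in water rats, and 4 ethanol rats lay above the highest water rat. It did not follow the brightest set (r = -0.020), and its difference of 0.077 had an unadjusted p of 0.0577 (adjusted p = 0.519 without the filter). Agreement between probe sets of Kcnj6 thus held for 3 of the 4.

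Sncg (1398245_at), the small vesicle-associated gamma-synuclein that is abundant in a subset of dopamine neurons and in other neurons and axons, had 11.07, 11.79 and 12.42 as lowest, median and highest values in ethanol rats, against 10.43, 12.02 and 13.05 in water rats. All 7 ethanol rats lay inside the water range. The SD was 0.55 in ethanol rats and 1.06 in water rats, and the spread within groups was larger than for 99.8% of measured probe sets. The difference was -0.11 (SE 0.40, 95% interval -0.96 to 0.73, adjusted p = 0.935), so the interval covers factors of 0.516 to 1.66. Without water rats 7 and 8, which had the highest Sncg, the difference was 0.28 (SE 0.36, adjusted p = 0.859).

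Most of the genes were high and low in the same rats, with Sncg and Foxa2 as exceptions. Water rats 7 and 8 had the highest Sncg, at 13.05 and 12.99, and water rat 7 had the highest Foxa2 of the water rats (10.95) and the lowest Drd2 of all 15 rats (10.64). Ethanol rat 1 was the highest of all 15 in 7 of the 8 measured genes, all but Sncg. Ethanol rat 7 was among the highest 3 in 6 of the 8. At the other end, water rats 5 and 8 were each among the lowest 3 in 6 of the 8 genes, and ethanol rat 5 in 4. Spread within groups was wide for all 8, from 0.23 to 0.86, beside a median of 0.11 over all measured probe sets.

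The level of Th in each rat was used to describe this shared variation, with permutation tests over 15 arrays and p-values adjusted over the 8 genes. Ret followed Th most closely (r = 0.94, rho = 0.92, permutation p = 1e-05, the smallest the resampling can give, adjusted p = 8e-05). Drd2 came next (r = 0.92, rho = 0.92, adjusted permutation p = 8e-05), then Kcnj6 (r = 0.85, rho = 0.86, adjusted permutation p = 0.00022) and Nr4a2 (r = 0.84, rho = 0.90, adjusted permutation p = 0.000187). Aldh1a1 (r = 0.81, rho = 0.83) and Otx2 (r = 0.78, rho = 0.84) also passed, with adjusted permutation p-values of 0.000272 and 0.000467. All 6 genes were high in rats with high Th and low in rats with low Th.

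Leaving out water rats 7 and 8, which lay farthest from the median of Th, r was 0.90 for Ret, 0.86 for Drd2, 0.84 for Kcnj6, 0.88 for Nr4a2, 0.85 for Aldh1a1 and 0.71 for Otx2. Within the 7 ethanol rats r was 0.87 for Ret, 0.86 for Drd2, 0.90 for Kcnj6, 0.84 for Nr4a2 and 0.81 for Aldh1a1, all past the adjusted threshold in exact permutation tests, and 0.67 for Otx2 (adjusted exact p = 0.116). Within the 8 water rats r ran from 0.81 to 0.97 for the same 6 genes, all past it. Among all 18625 measured probe sets ordered by r with Th, Ret stood at place 16, Drd2 at 54, Kcnj6 at 222, Nr4a2 at 254, Aldh1a1 at 343 and Otx2 at 472. Foxa2 stood at 4600 and Sncg, with a negative r, at 18079. The dim Pitx3 also followed Th (r = 0.71, rho = 0.78, permutation p adjusted over all 10 genes = 0.00459), and the dim Foxa1 did not pass (r = 0.026).

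**Figure D2:**
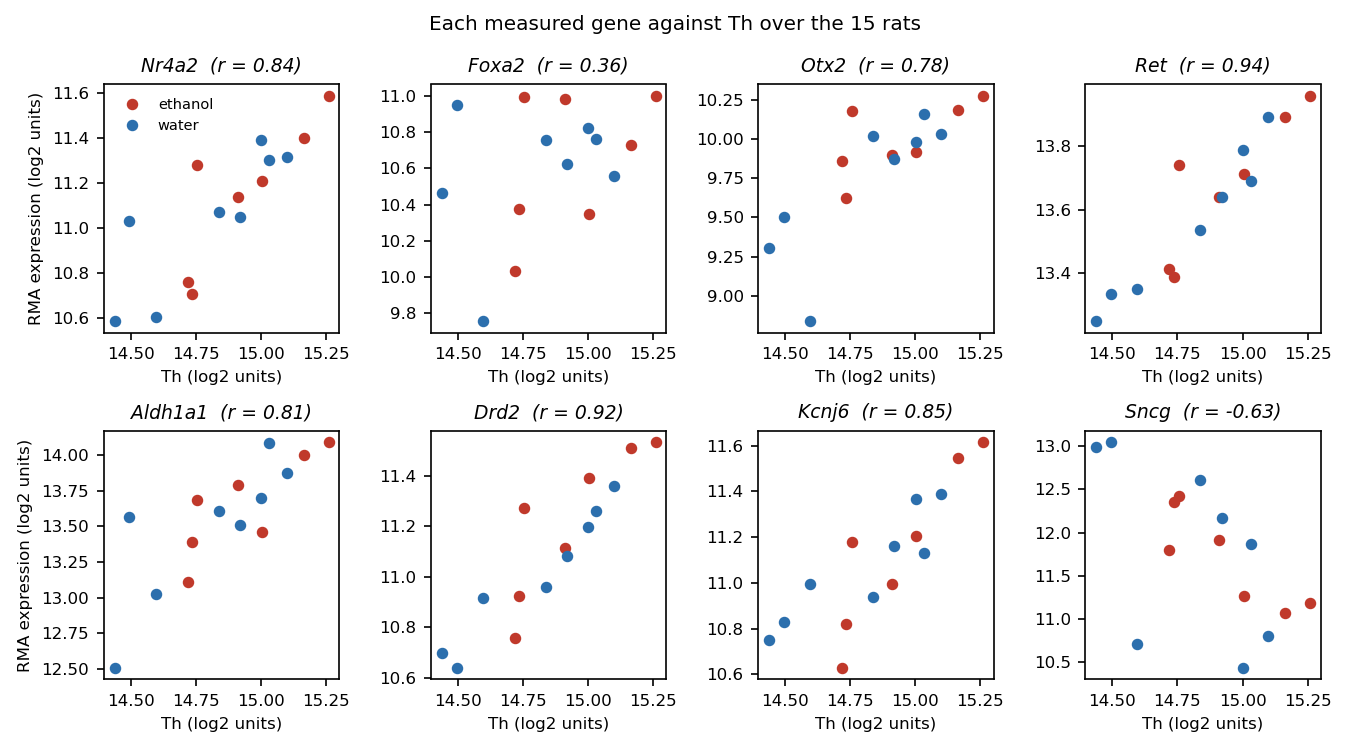
Log2 expression of each of the 8 measured genes (vertical axes) against that of Th (horizontal axes) in 7 ethanol rats (red) and 8 water rats (blue), with Pearson r over the 15 rats above each panel. Ret lies closest to a line (r = 0.94), Foxa2 scatters (r = 0.36) and Sncg slopes downward (r = -0.63).

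Foxa2 did not pass with Th (r = 0.36, rho = 0.33, adjusted permutation p = 0.185). Without water rats 7 and 8 it did (r = 0.59, adjusted permutation p = 0.037), so its relation to Th hangs on those arrays. Sncg ran opposite to Th (r = -0.63, rho = -0.57, adjusted permutation p = 0.0154). Without the same rats its r was -0.37 (adjusted permutation p = 0.208), so the relation over all rats did not pass without them. Within ethanol rats, which hold neither, r was -0.87 (adjusted exact permutation p = 0.0341), and within water rats -0.56 (adjusted exact permutation p = 0.167).

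With Slc6a3 in place of Th, 7 of the 8 genes again passed and Foxa2 did not (r = 0.20). The share of all measured probe sets that would pass with Slc6a3 was not computed. Drd2 (r = 0.96) and Kcnj6 (r = 0.91) followed the transporter most closely, and Ret was at 0.90. Nr4a2 (0.75), Aldh1a1 (0.70) and Otx2 (0.60) followed it less tightly in these values, a contrast that was not tested. Sncg was at -0.71 (rho = -0.71, adjusted permutation p = 0.00509), and at -0.52 without water rats 7 and 8. Without those rats Otx2 was at 0.44. Within groups, by exact permutation tests, Ret, Drd2 and Kcnj6 passed in both ethanol and water rats and Nr4a2 in ethanol rats (adjusted p = 0.048) but not in water rats (adjusted p = 0.107). Otx2 (adjusted exact p = 0.105 in ethanol rats and 0.216 in water rats), Aldh1a1 (0.0857 in ethanol rats and 0.107 in water rats) and Sncg (0.105 in ethanol rats and 0.0629 in water rats) passed in neither.

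When the array mean of Th, Slc6a3, Slc18a2 and Ddc entered the fit as a covariate, the differences between groups moved to -0.082 for Nr4a2, -0.020 for Foxa2, 0.094 for Otx2, -0.045 for Ret, -0.078 for Aldh1a1 and -0.0041 for Drd2. The SE of Ret fell to 0.045, against 0.11 without the covariate, and that of Drd2 to 0.045, against 0.13. Kcnj6 was at -0.14 (SE 0.063, unadjusted p = 0.0392, adjusted p = 0.447) and Sncg at 0.36 (SE 0.30, adjusted p = 0.766). None of the 8 passed by limma. The reference mean itself was 0.18 higher in ethanol rats, a difference that did not pass, and whether ethanol moved the dopamine neurons as a whole was not tested by this fit.

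**Figure D3:**
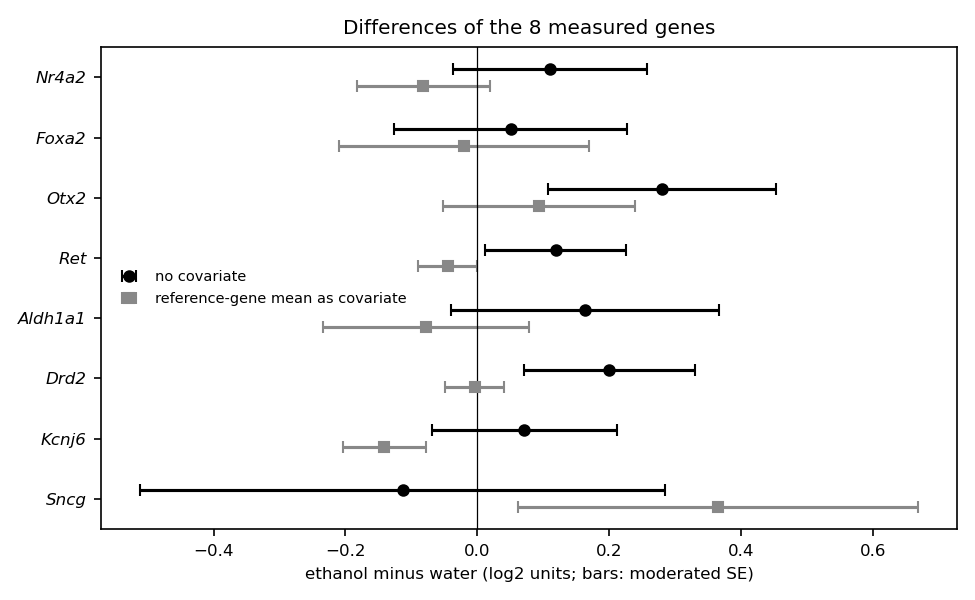
Ethanol minus water difference in log2 units (horizontal axis) of the 8 measured genes, without a covariate (black circles) and with the array mean of Th, Slc6a3, Slc18a2 and Ddc as covariate (grey squares), with bars of 1 moderated SE. With the covariate Drd2 sits at -0.0041, against 0.20 without it, and the bars of Ret and Drd2 shorten.

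Between the genes themselves 28 pairs were computed, chosen after the data were seen, with p-values adjusted over the 28. By permutation test 18 pairs passed with a positive r, 3 with a negative r, and 7 did not pass. The share of pairs of other measured probe sets that would pass was not computed. Nr4a2, Otx2, Ret, Aldh1a1, Drd2 and Kcnj6 correlated in all 15 of their pairs, with r from 0.58 (Otx2 with Kcnj6) to 0.95 (Ret with Drd2). Not all of them passed within a group. In water rats Otx2 with Kcnj6 (adjusted exact permutation p = 0.194) and with Drd2 (0.112) were among those that did not. In ethanol rats Otx2 did not pass with Aldh1a1, Drd2 or Kcnj6 (adjusted exact permutation p = 0.0512 to 0.0795). Nr4a2 was close to Ret (r = 0.93, rho = 0.96), the receptor gene that depends on it in mice. Foxa2 passed with Nr4a2 (r = 0.71, rho = 0.59), Otx2 (r = 0.66, rho = 0.59) and Aldh1a1 (r = 0.65, rho = 0.72), and not with Ret, Drd2 or Kcnj6. Leaving out water rat 5 and ethanol rat 5, the lowest for Foxa2, gave r = 0.42 with Otx2 and 0.53 with Aldh1a1. The 3 negative pairs were those of Sncg with Ret (r = -0.59), Drd2 (r = -0.62) and Kcnj6 (r = -0.65). By rank the pair with Drd2 did not pass (adjusted permutation p = 0.063), and within either group none of the 3 did (adjusted exact permutation p = 0.0605 to 0.169).

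**Figure D4:**
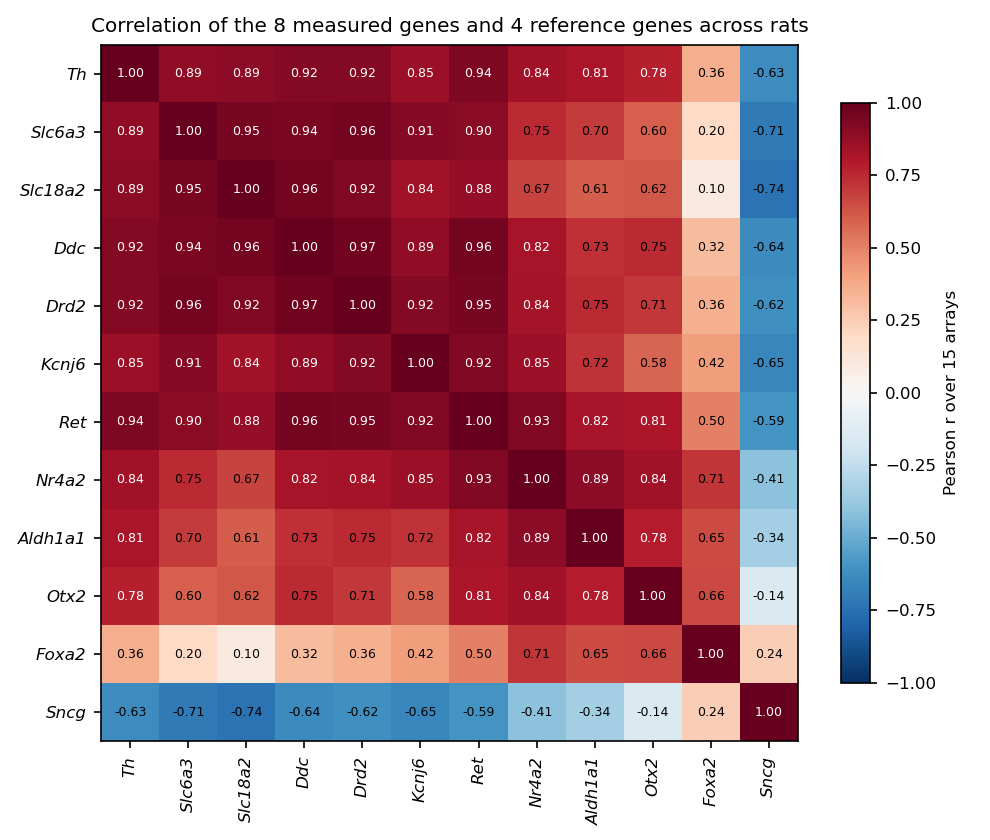
Pearson r over 15 arrays (colour and printed value, from -1 to 1) between the 8 measured genes and the 4 reference genes of dopamine neurons. A block of high values joins the reference genes with Drd2, Kcnj6 and Ret, Foxa2 is pale against them, and the Sncg row is negative against all of the reference genes.

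The genes were then compared with other cells of the region, after the data were seen. Each gene was set against the array mean of 13 marker lists, 104 relations in all, adjusted together. Foxa2 ran opposite to the serotonin neuron markers (r = -0.87, rho = -0.84, adjusted permutation p = 0.00728 and 0.0146), and without the 2 arrays farthest from the median of that list r was -0.73. Within groups r was -0.94 in ethanol rats and -0.81 in water rats, and neither passed (adjusted exact permutation p = 0.144 and 0.582). Foxa2 was not alone in this direction. Within ethanol rats Nr4a2 and Aldh1a1 were both at -0.89 against this list and Sncg at 0.22. Within water rats they were at -0.54, -0.43 and -0.29. Of the 3 serotonin markers on the array 1 was measured, the transporter Slc6a4, which ranged from 6.14 to 10.96 over the rats. The list mean ranged over 5.65 to 7.51 in ethanol rats and 5.70 to 7.52 in water rats. Foxa2 also ran opposite to the GABA neuron markers Gad1, Gad2 and Slc32a1 (r = -0.77, adjusted permutation p = 0.0395), though not by rank (rho = -0.73, adjusted permutation p = 0.0762). It passed in neither group alone (adjusted exact permutation p = 0.144 in ethanol rats and 0.582 in water rats). All 3 GABA neuron markers were measured, and their mean ranged over 11.33 to 12.19 in ethanol rats and 10.79 to 12.10 in water rats. The part of these other neurons in the Foxa2 values was not tested.

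No relation of Sncg to a marker list passed. The nearest was that to the glutamate neuron markers (r = 0.71, rho = 0.74, adjusted permutation p = 0.0887 and 0.0762). Of these Slc17a6 was measured and ranged from 9.98 to 13.31, and Slc17a7 was not above the filter. The list mean ranged over 8.37 to 9.37 in ethanol rats and 7.97 to 9.50 in water rats. Sncg did follow the first principal component of all measured probe sets, which carries 30.7% of the variance (r = 0.95, rho = 0.91, permutation p adjusted over 16 = 0.00016), and within groups r was 0.91 in ethanol rats and 0.98 in water rats. Drd2 (r = -0.66), Kcnj6 (r = -0.61) and Ret (r = -0.58) also passed with that component, opposite to Sncg, though none of them by rank (adjusted permutation p = 0.0567 to 0.107). Without water rats 7 and 8 they were at -0.39, -0.48 and -0.30, and Sncg at 0.92. The sign of a component is arbitrary. It was set to be positive for Sncg in the first and for Foxa2 in the second, so only directions relative to these carry meaning. With the second component, which carries 13.2%, all genes but Sncg passed: Otx2 (r = 0.88), Nr4a2 (r = 0.87), Foxa2 (r = 0.82), Aldh1a1 (r = 0.77), Ret (r = 0.74), Drd2 (r = 0.67) and Kcnj6 (r = 0.62). Within ethanol rats all of these but Foxa2 passed (adjusted exact permutation p = 0.0762 for Foxa2). Within water rats only Otx2 did (r = 0.89, adjusted exact permutation p = 0.0391), and r was 0.53 for Ret, 0.39 for Drd2 and 0.27 for Kcnj6. Both components were computed without scaling from all measured probe sets, these 8 genes among them. Genes of wide spread, such as these, weigh more in them. A pass with a component is therefore a description, and the share of all measured probe sets that would pass was not computed. What sets these components, dissection included, was not tested.

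By likeness over the 15 arrays, with each group's mean removed, the genes closest to Nr4a2 were Gfra1 (r = 0.97), Bcl11a and Plagl1. Those closest to Ret were Ankrd34b (r = 0.98), Gfra1 and Clptm1l, and Gfra1, which encodes the GDNF co-receptor that pairs with Ret, was thus on both lists. Drd2 had Perp (r = 0.97), Apba1 and Slc10a4, and Kcnj6 had Nell2 (r = 0.96), Apba1 and Slc10a4. Aldh1a1 was closest to Igfbp3 (r = 0.97), Grp and Plagl1, Otx2 to Crhbp (r = 0.94), Kidins220 and Lama5, and Foxa2 to Necab3 (r = 0.92), Cdo1 and Adcyap1. Sncg was closest to Slc20a1, Uck2 and Hebp2, at r = 0.97 to 0.98. Each is the best of at least 13750 probe sets, so these values are descriptions.

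Other genes of the same pathways were read from 6 related lists, of which 44 genes with 57 probe sets were measured. By limma 0 of the 57 passed, against 0.929% of all measured probe sets, and 9 did at an unadjusted p under 0.05, against 12.1%. Among genes of dopamine synthesis, transport and breakdown, 0 of 9 passed and 8 had the higher mean in ethanol rats, against 53.3% of all measured probe sets, with a median difference of 0.18. Th, Slc6a3, Slc18a2 and Ddc correlated with one another at r = 0.89 to 0.96, so their signs are not separate observations. Qdpr, which regenerates the tetrahydrobiopterin cofactor of tyrosine hydroxylase, came nearest, at 14.14 ± 0.09 in ethanol rats and 13.92 ± 0.10 in water rats (difference 0.21, SE 0.051, adjusted p = 0.068). It passed under 5 alternative settings, with adjusted p-values of 0.0217 to 0.0481: array weights, robust eBayes with a trend, gene means of probe sets, and without water rat 5 or 7. Gch1, the first enzyme of that cofactor's synthesis, differed by 0.33 (adjusted p = 0.405) and the monoamine oxidase Maob by 0.18 (adjusted p = 0.338).

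Of the patterning and development factors 0 of 8 passed, with a median of 0.032. The lowest values were those of the Nr4a2 relatives Nr4a3, at 6.75 ± 0.29 in ethanol rats and 7.12 ± 0.26 in water rats (difference -0.38, adjusted p = 0.229), and Nr4a1, at 7.70 ± 0.34 in ethanol rats and 8.02 ± 0.22 in water rats (difference -0.32, adjusted p = 0.327). Both are induced by neuronal activity, and Nr4a2 itself stood at 0.11. The mean of Nr4a3 in ethanol rats lay under the filter level of 6.94, so it counted as measured only through its values in water rats. Ebf1 was at 0.12 (adjusted p = 0.595). Of the subtype markers 0 of 17 passed, 14 had the higher mean in ethanol rats, against 53.3% of all measured probe sets, and the median was 0.13. Their smallest p-values belonged to the neurotensin receptor Ntsr1 (0.33, adjusted p = 0.398), the neurokinin receptor Tacr3 (0.29, adjusted p = 0.397) and the calcium buffer Calb1 (0.25, adjusted p = 0.414).

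For Ret's partners 0 of 4 passed, with a median of 0.13: the ligand Pspn was at -0.14 (adjusted p = 0.357), the co-receptor Gfra2 at 0.16 (adjusted p = 0.562) and the ligand Nrtn at 0.098 (adjusted p = 0.618). Of the list of other dopamine receptors and signalling partners of Drd2 and Kcnj6, 4 of 10 genes on the array were measured, none of them a receptor, and 0 of the 4 passed, with a median of 0.055. The channel subunit Kcnj5 was at 0.13 (adjusted p = 0.675), and the G protein subunits Gnao1 and Gnai2 were at 0.059 and 0.051. Of the relatives of Aldh1a1 and Sncg 0 of 3 passed, with a median of -0.045: Sncb was at -0.060 (adjusted p = 0.724), Sncaip, which binds synuclein, at -0.045 (adjusted p = 0.822) and Aldh2 at 0.033 (adjusted p = 0.885).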

How the data were processed

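RNA of the ventral tegmental area was labelled from 25 ng of total RNA by a protocol of 2 amplification cycles, per the labels. The deposited values are log2, and RMA is the method that the submitters' processing notes name for them, without a version. The table held 31099 probe sets, of which 57 controls were left out, and 0 value columns were unused. Symbols came from the platform annotation (20826 probe sets with 1 symbol, 436 with several, 9780 with none), and all 10 Entrez numbers matched RefSeq GRCr8. Groups came from the labels, and the number of arrays limits the precision. Here limma 3.58.1 in R 4.3.3 was fitted without covariates to probe sets at or above the 40th percentile (lmFit, eBayes, two-sided, Benjamini-Hochberg) and tested on simulated data. Correlations used 100000 resamples, or all 5040 and 40320 pairings within groups. The genes named are all 10 above, with Th, Slc6a3, Slc18a2 and Ddc. Also named are the 3 genes with the smallest p in each related list and the 3 most alike to each measured gene. Olig1, Pdgfra, Cspg4, Col1a1, Slc6a4 and Slc17a6 were named after their values were seen. The genes, lists and tests were chosen with earlier results of these data known. Alternatives were other filters (none, 60th percentile), median centring, array weights, eBayes with trend and robust, a replicate block, the reference-gene covariate, gene means of probe sets, and each array left out. The labels name no litter or processing day, and no batch was tested. Animal numbers are shared by the groups. Over all measured probe sets, with group means removed, same-numbered rats had correlations of -0.41 to 0.29, over 0.1 in 4 of 7 pairs. They were not treated as pairs in the main fit. The replicate block is the alternative that pairs them, and its SEs for Nr4a2, Ret, Otx2 and Drd2 are given below.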

Additional observations from a re-analysis of the deposited data

Results flagged for a closer look

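Of 42 groups of values examined, 1 per probe set and group with the reference genes included, 2 held a sample far from the others, and chance flags about 1 in 20. For Foxa2 in water rats, the lowest value was 9.75 (water rat 5) and the next 10.46, a gap of 0.594 of the group's range. For the dim Otx2 probe set 1375394_at in water rats, the lowest value was 5.69 (water rat 6) and the next 6.04, a gap of 0.577 of the range.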

How the results depend on the processing

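Over 24 alternative settings the count of called probe sets among the 10 genes was 0 in every one, and of 192 differences of single genes 176 kept their sign, 16 reversed and 0 passed (lowest adjusted p = 0.304). With the reference-gene covariate the differences were -0.082 (Nr4a2), -0.020 (Foxa2), -0.045 (Ret), -0.078 (Aldh1a1), -0.0041 (Drd2), -0.14 (Kcnj6) and 0.36 (Sncg), and their median with Otx2 was -0.033, against 0.11. Leaving out each array in turn gave -0.068 to 0.15 for Foxa2 (negative without water rat 5 or ethanol rats 1, 4 or 6), -0.0080 to 0.16 for Kcnj6 (negative without ethanol rat 1), -0.31 to 0.060 for Sncg (positive without water rat 7 or 8), 0.038 to 0.18 for Nr4a2, 0.15 to 0.34 for Otx2, 0.072 to 0.17 for Ret, 0.024 to 0.25 for Aldh1a1, 0.15 to 0.28 for Drd2, and 0.048 (without water rat 8) to 0.18 for the median. Without water rats 7 and 8 together, chosen after seeing the data, Kcnj6 was at -0.023, Sncg at 0.28 and the median at 0.058. In the related lists 1 gene, Qdpr, passed under array weights (0.23, adjusted p = 0.0217), under eBayes with trend and robust settings (0.21, adjusted p = 0.0377) and with gene means of probe sets (0.21, adjusted p = 0.0481); over single arrays left out the count was 0 to 1, and it was 1 without water rat 5 or 7. With the replicate block 0 probe sets of the 10 genes and 0 of the related lists passed, and the median was 0.16. The SE of each measured gene was smaller with it. Differences were 0.16 for Nr4a2 (SE 0.060, against 0.15 in the main fit), 0.15 for Ret (SE 0.066, against 0.11), 0.32 for Otx2 (SE 0.14) and 0.23 for Drd2 (SE 0.11). Adjusted p-values by limma ran from 0.304 (Nr4a2) to 0.736 (Foxa2). The differences equal those without water rat 3, which has no same-numbered ethanol rat. The causes were not tested. No detection call entered the fits. How far Pitx3 and Foxa1 stood above background was therefore judged from their mean levels alone.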
